A study of Orbicella faveolata with 18 samples.

Results

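Embryos of the coral Montastraea faveolata that were kept at 29.0°C were compared at 48 and 12 hours after fertilization. Each age was measured as 1 pool of embryos from 3 culture containers, 1 RNA isolation and 3 technical cDNA arrays, so that 6 of the 18 arrays of the series entered the comparison. Fertilization took place at 30°C for all samples, and the embryos of all temperatures were moved to their rearing bath 2 hours later. The other 4 RNA samples came from embryos of 48 and 12 hours at 27.5°C and at 31.5°C. Embryo RNA was labelled with Cy5 and hybridised beside a pooled reference in Cy3, and a value is the log2 ratio of Cy5 over Cy3 of 1 clone on 1 array. The reference is common to both ages and cancels in their difference. The source names in the labels give 30°C where the titles and characteristics give 29.0°C, and 29.0°C is used here. Of 1218 clones in the table, 1215 were measured on 2 or 3 arrays at both ages and 1182 on all 6 arrays. For 242 of the 1215 clones a gene or domain name was at hand, given by the study from sequence similarity.

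Between these ages a coral embryo passes from blastula to gastrula, on the way to a swimming planula larva. The paper staged embryos of these cultures some hours after each age and found mostly blastulae, then mostly gastrulae. It proposes that the ages separate by developmental stage, and did not compare them directly. As background, early embryos of animals run on maternal RNA and protein stores, divide quickly and need large amounts of histones to package new chromatin. Later they transcribe their own genome, form tissues and make ribosomes in growing numbers. Ribosomes consist of ribosomal RNA and a large and a small set of ribosomal proteins, whose genes tend to be expressed together. Reactive oxygen species, which arise in respiration, are removed by enzymes such as catalase and by iron-binding proteins such as ferritin.

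A clone was taken as changed where the 95% intervals of its mean at 48 hours and at 12 hours did not overlap, with 1 spread per clone pooled over all 18 arrays. The sum of the 2 half-widths is called the limit below, and a log2 difference has to pass it. Rose and fell refer to clones that did. Because each age is 1 RNA sample, a call compares 2 pools of embryos against the error between arrays, and no p-value is given. Among the 1215 clones 570 changed (46.9%), 304 of them higher (25.0%) and 266 lower (21.9%) at 48 hours. The median size of their change was 0.90 on the log2 scale, and the median limit of all clones was 0.50. In whole embryos, fewer cells of a type and less RNA per cell cannot be told apart. By more than 2-fold, 248 of the 1215 clones changed (20.4%), of which 154 rose and 94 fell. By more than 4-fold, 28 rose and 15 fell, and the 9 clones that changed by more than 8-fold all rose. The values of the ages did not overlap in 784 of the 1182 clones with all 6 values (66.3%).

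The arrays of the embryos of 48 hours were less even. Replicate 1 correlated across clones with the others of its sample at 0.591 and 0.689, and these correlated with each other at 0.853. The 3 arrays of 12 hours correlated at 0.891 to 0.944. The number of spots with usable signal was 2583 to 2978 on the arrays of 48 hours and 2818 to 2984 on those of 12 hours. Without replicate 1 of 48 hours 524 clones changed, and 497 of the calls were shared with the full set. In the Cy5 channel, that of the embryos, the median signal was 7.03- to 14.3-fold the background at 48 hours and 5.01- to 8.22-fold at 12 hours.

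Among clones with a gene name, the largest rise was that of a universal stress protein (AOSF1521), a member of a family of small proteins first known from stressed bacteria. Its log2 ratio was 1.45, 1.27 and 1.36 on the arrays of 48 hours and -1.90, -1.61 and -1.75 on those of 12 hours. The groups were far apart on every array, and the rise of 3.12 on the log2 scale corresponded to 8.67-fold against a limit of 0.25. Catalase (AOSF550), which splits hydrogen peroxide, gave 1.09, 1.11 and 1.33 at 48 hours and -1.22, -1.46 and -1.51 at 12 hours, a rise of 2.57 or 5.95-fold. Soma ferritin (CAON1101), an iron storage protein, gave 0.90, 0.62 and 0.56 at 48 hours and -1.57, -1.54 and -1.59 at 12 hours, a rise of 2.26. Both clones were above the reference at 48 hours and well below it at 12 hours. Glutathione S-transferase Mu (AOSF1447), which couples glutathione to reactive compounds, rose by 1.88, but its 3 values at 48 hours, -0.37, -0.12 and -0.11, were still below the reference. A chloramphenicol acetyltransferase clone (CAOO1050) rose by 2.18 with a wide limit of 1.64. Its SD was 0.27 at 48 hours and 0.23 at 12 hours, and 1.52 over the arrays of 12 hours at 27.5°C, which share in the limit. Peptidase M (CAON1197) rose by 1.75. The other 6 of the 12 largest rises were ribosomal protein clones. They were L18 (AOSC1063, 2.35), L7A (CAON914, 2.29), S14 (AOSF1155, 2.05), L5 (AOSF1256, 2.03), L15 (CAOO1045, 1.95) and L35a (AOSF1193, 1.77).

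**Figure D1:**
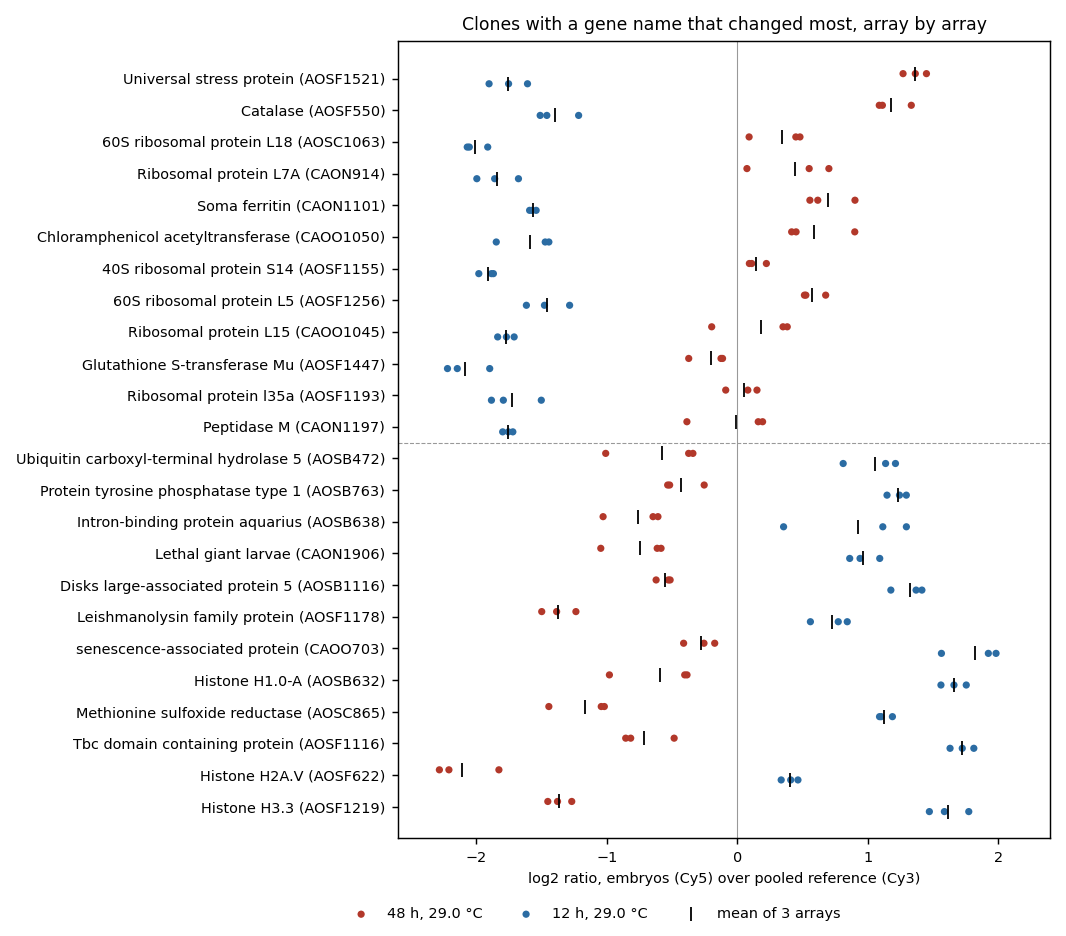
Log2 ratios of embryo RNA over pooled reference on each array for the 12 largest rises (above the dashed line) and the 12 largest falls (below it) among clones with a gene name, at 29.0°C. Red points are the 3 arrays of 48 hours, blue points the 3 arrays of 12 hours and black bars their means. For each of the 24 clones no red point overlaps the range of the blue points, which the choice of these clones required.

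The largest falls were led by histones. Histone H3.3 (AOSF1219), the H3 variant that can be placed in chromatin outside DNA replication, gave -1.45, -1.27 and -1.38 at 48 hours and 1.47, 1.59 and 1.77 at 12 hours. It fell by 2.98 on the log2 scale, or 7.87-fold, against a limit of 0.25. Histone H2A.V (AOSF622), a variant of H2A, gave -1.83, -2.21 and -2.28 at 48 hours and 0.34, 0.47 and 0.41 at 12 hours, and fell by 2.51. The linker histone H1.0-A (AOSB632) gave -0.98, -0.38 and -0.40 at 48 hours and 1.66, 1.56 and 1.76 at 12 hours, and fell by 2.25. All 3 histone clones of the list fell, and in each the arrays of the ages were separated by more than the spread within either age. A methionine sulfoxide reductase (AOSC865), which repairs oxidised methionine, gave -1.44, -1.02 and -1.04 at 48 hours and 1.09, 1.10 and 1.19 at 12 hours, and fell by 2.30. A Tbc domain protein (AOSF1116), of a family that switches off Rab GTPases, fell by 2.44, and a leishmanolysin family metalloprotease (AOSF1178) changed by -2.10. A senescence-associated protein (CAOO703) gave -0.41, -0.17 and -0.25 at 48 hours and 1.57, 1.92 and 1.98 at 12 hours, so that it fell by 2.10 on the log2 scale. Lethal giant larvae (CAON1906), a cell polarity protein known as a tumour suppressor in Drosophila, fell by 1.71. Disks large-associated protein 5 (AOSB1116), whose vertebrate counterpart binds the mitotic spindle, fell by 1.88. The remaining falls of this group were in intron-binding protein aquarius (AOSB638, -1.68), a splicing factor, protein tyrosine phosphatase type 1 (AOSB763, -1.66) and ubiquitin carboxyl-terminal hydrolase 5 (AOSB472, -1.63), which takes ubiquitin chains apart.

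Larger rises were found among clones without a name. AOSF1134 gave 1.43, 1.34 and 1.34 at 48 hours and -3.85, -5.06 and -4.43 at 12 hours, a rise of 5.81 on the log2 scale or 56.2-fold. This clone rose by 6.64 at 27.5°C and by 5.43 at 31.5°C. How near the background its embryo signal lay at 12 hours was not tested, since scanner spots carry no clone names. CAON604 gave 1.48, 1.03 and 1.09 at 48 hours and -2.90, -3.23 and -3.05 at 12 hours, a rise of 4.26. The largest falls without a name were those of AOSF1165, -2.79, and CAON395, -2.46. Names were read only from the study's list of 538 clones that differed between temperatures. Of the 9 clones that rose by more than 8-fold, 1 had a gene name there, and 396 of the 570 changed clones had none. Of the 570, 220 are not in that list, so names for them were not looked up. The HSP90 clone (AOSF1451), which the article names in its text, counts among the 396.

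The functional lists used next are the categories that the study gave to clones it had selected on these same arrays for differences between temperatures. Their directions are therefore not independent evidence, and each list is set beside all 1215 clones, of which 25.0% rose and 21.9% fell with a median difference of -0.03. The plot of all members by list shows the lists in the order of their medians, from ribosomal proteins at the top to histones at the bottom.

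**Figure D2:**
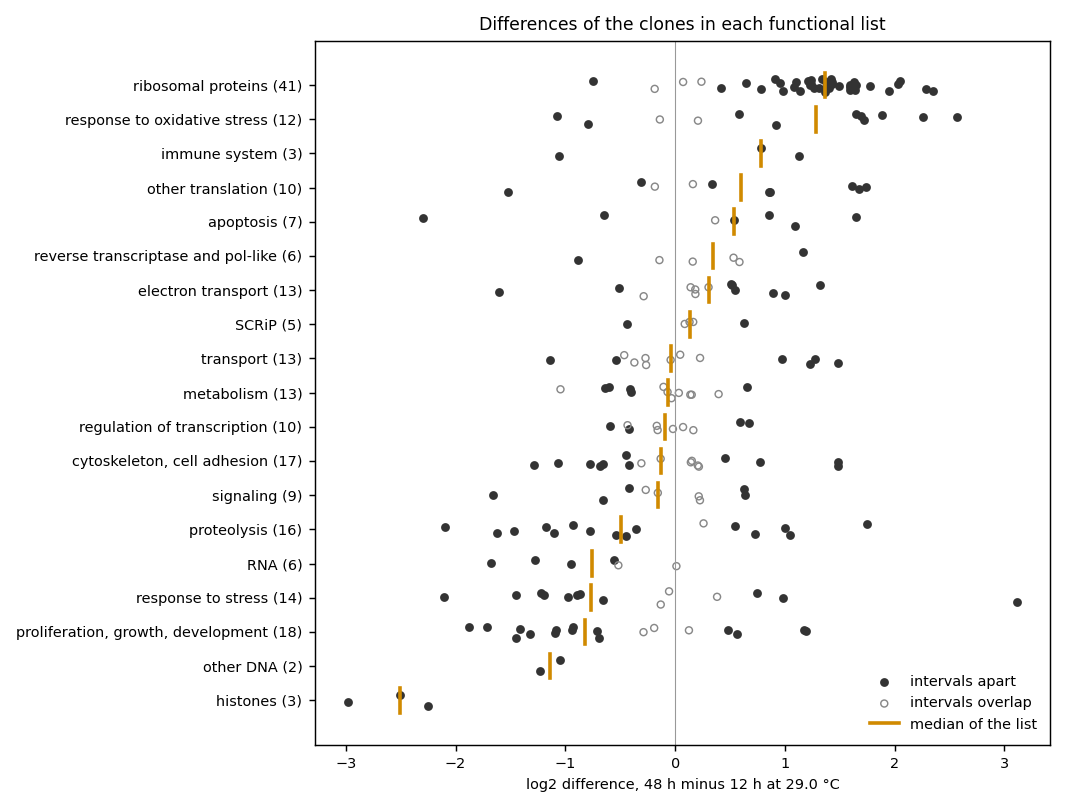
Log2 difference between 48 and 12 hours at 29.0°C for every clone of 19 functional lists, with the number of clones in parentheses. Filled points are clones whose 95% intervals at the 2 ages did not overlap, open points are the others, and the orange bar is the median of the list, which was 1.36 for ribosomal proteins and -2.51 for histones.

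Ribosomal proteins made up the largest list. Of 41 clones, which carry 35 different protein names, 37 rose, 1 fell and 3 did not pass the limit, with a median difference of 1.36 on the log2 scale. In 37 of the 41 clones every array of 48 hours lay above every array of 12 hours, and in 1 below. Among all clones with 6 values these shares were 32.8% and 33.5%. Over the list the median log2 ratio was -0.09, 0.29 and 0.24 on the 3 arrays of 48 hours and -1.21, -1.16 and -1.18 on those of 12 hours. The mean of 40 of the 41 clones was within 0.5 of the reference at 48 hours, while 27 clones had a mean below -1 at 12 hours. The same counts were not made over all clones. Ratios of all clones were also less spread at 48 hours, with an SD of 0.35 to 0.49 per array, against 0.67 to 0.70 at 12 hours. With equal median absolute deviation of the arrays, 35 clones of the list rose and 1 fell, with a median of 1.18. Both subunits moved alike. In the large subunit 22 of 24 clones rose, with a median of 1.40, and in the small subunit 15 of 17, with a median of 1.34. Replicate 1 of 48 hours, the array that stood apart, was the lowest of its sample for this list, and without it again 37 clones rose and 1 fell, with a median of 1.46.

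L18 (AOSC1063) had the highest difference of the list, with 0.09, 0.48 and 0.45 at 48 hours and -2.05, -1.91 and -2.07 at 12 hours. S14 (AOSF1155) gave 0.22, 0.11 and 0.09 at 48 hours and -1.98, -1.88 and -1.87 at 12 hours. L5 (AOSF1256) gave 0.53, 0.52 and 0.68 at 48 hours and -1.62, -1.28 and -1.48 at 12 hours. In all 3 clones each array of 48 hours lay above the reference and each array of 12 hours below it. The 4 clones outside this pattern are named here after their values were seen. S5 (CAON1341) fell by 0.75, with 0.12, -0.30 and -0.22 at 48 hours and 0.69, 0.51 and 0.66 at 12 hours. L3 (AOSC713, 0.24 with a limit of 0.47), L23 (CAOO2477, 0.07 with a limit of 0.47) and S10 (CAON566, -0.19 with a limit of 0.42) did not pass. A second clone annotated as S10 (AOSC475) rose by 1.37, so the clones of 1 name did not agree. The name of AOSF1141, which rose by 1.43, is L15 in one of the study's lists and S27 in another.

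The other clones of translation moved less evenly. Of 10 clones 6 rose and 2 fell, with a median of 0.60. Ribosome biogenesis protein RLP24 (CAON1092) rose by 1.68, with 0.11, 0.43 and 0.48 at 48 hours and -1.37, -1.23 and -1.42 at 12 hours. A nucleolar GTP-binding protein (AOSF569) rose by 1.74 and elongation factor 1-alpha (AOSF1463), which brings aminoacyl-tRNA to the ribosome, by 1.61. A class I aminoacyl-tRNA synthetase (AOSF1161) fell by 1.52, with 0.18, -0.62 and -0.63 at 48 hours and 1.25, 1.16 and 1.09 at 12 hours.

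Of the 12 clones listed under response to oxidative stress, 8 rose and 2 fell, with a median of 1.29. Besides catalase, soma ferritin and glutathione S-transferase, the list held peroxidasin (AOSF997), a peroxidase of the extracellular matrix. It gave 1.26, 0.76 and 1.19 at 48 hours and -1.03, -0.67 and -0.26 at 12 hours, a rise of 1.72 with a limit of 0.69. Cytochrome p450 (CAON1879) rose by 0.59, with 0.49, 0.22 and 0.22 at 48 hours and -0.30, -0.26 and -0.28 at 12 hours. The rises of this list thus ran from 0.59 to 2.57, and the arrays of the ages did not overlap in any of the 5 clones named. Among all clones with values on every array of 29.0°C, this held for 66.3%. Catalase, soma ferritin and glutathione S-transferase were among the largest rises, a choice that required arrays apart, so their separation is not a separate result. Outside the naming rule, and named after their values were seen, a second ferritin (CAON969, 1.70), malate dehydrogenase (AOSF1222, 1.65) and sulfhydryl oxidase (AOSF787, 0.92) also rose. A peroxisomal enoyl-CoA isomerase (AOSC790, -0.80) and a 2Fe-2S ferredoxin site clone (AOSC403, -1.08) fell, and thioredoxin (AOSF1373, 0.21) and cytochrome c (AOSC785, -0.14) did not pass.

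The list of response to stress leaned the other way, with 3 rises and 8 falls among 14 clones and a median of -0.76, although it holds the universal stress protein with the largest rise of any named clone. Transcription factor HES-1 (AOSF533), a repressor downstream of Notch signalling, fell by 1.45, with -0.73, -1.11 and -1.33 at 48 hours and 0.32, 0.52 and 0.35 at 12 hours. Transcriptional regulator ATRX (AOSB947), a chromatin remodeller, fell by 1.23, and stress response protein NST1 (AOSB460) fell by 0.87. Clones that act in transcription and chromatin thus stand among the falls of this list, beside those named for stress. Drought-induced protein rdi (CAON1066) rose by 0.99 with a limit of 0.87. Its call was lost with arrays of equal median absolute deviation (0.77), without replicate 2 (1.00) or replicate 3 (0.92) of 48 hours, and without replicate 1 (0.97) or replicate 3 (0.95) of 12 hours. Recombination repair protein 1 (AOSB392) rose by 0.74, and this call was lost without replicate 2 (0.61) or 3 (0.65) of 48 hours and without replicate 1 of 12 hours (0.60), and with the spread of both ages at 29.0°C alone (limit 1.09). A clone annotated as senescence-associated protein (CAOO2479) differed by 0.38 and did not pass its limit of 0.51, whereas CAOO703 with the same annotation was among the largest falls, at -2.10.

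Heat shock genes were few. The HSP90 clone (AOSF1451), a chaperone that holds signalling proteins in an active state, fell by 1.30, with -0.91, -0.66 and -0.63 at 48 hours and 0.40, 0.65 and 0.66 at 12 hours. A clone for a heat shock protein of 97 kDa (CAOO2018) had 0.37 and -0.26 on 2 arrays of 48 hours and 0.13, 0.31 and 0.61 at 12 hours, and its difference of -0.29 was under the limit of 0.80. Heat shock transcription factor 1 (CAON1605) had -0.13 with a limit of 0.40, and 0.03 without replicate 3 of 48 hours.

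Clones of cell proliferation, growth and development fell more often than they rose, 11 against 4 of 18, with a median of -0.82. A second lethal giant larvae clone (AOSB668) fell by 1.45, with -0.72, -0.47 and -0.64 at 48 hours and 0.65, 0.88 and 0.97 at 12 hours. Piwi-like protein 4 (AOSF1434), of the family that binds small RNAs in the germ line of animals, fell by 1.41, with -0.83, -1.09 and -1.19 at 48 hours and 0.18, 0.58 and 0.37 at 12 hours. Calmodulin (AOSF573), the calcium sensor, was among the rises, with -0.99, -0.53 and -0.60 at 48 hours and -1.84, -1.77 and -2.03 at 12 hours, a rise of 1.17. All of its values lay below the reference, while those of the polarity and Piwi clones crossed it.

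Both other DNA clones fell. These were mitochondrial DNA topoisomerase I (CAON1314, -1.23) and DNA polymerase epsilon subunit 3 (AOSB437, -1.05), a part of the replicative polymerase. Of the 6 clones of RNA processing 4 fell and none rose, with a median of -0.75. Besides aquarius, serine arginine repetitive matrix 1 (AOSB1012) fell by 1.27 on the log2 scale. A double-stranded RNA adenosine deaminase (AOSB1111, -0.95) and pre-mRNA branch site protein p14 (AOSF1016, -0.56) fell less.

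Of 16 proteolysis clones 5 rose and 10 fell, with a median of -0.49. The 10 clones with ubiquitin or proteasome in their annotation held 2 of the rises and 7 of the falls, a split made after the values were seen. Among these falls, not named by the rule, were ubiquitin carboxyl-terminal hydrolase 7 (AOSC877, -1.18), the ligase UHRF1 (AOSB949, -1.11), which helps to maintain DNA methylation, and 2 clones of the 26S proteasome (AOSC1104, -0.54, and AOSB764, -0.36). The serpin clone (AOSF1053), a protease inhibitor, fell by 1.47, with -0.39, -0.86 and -0.74 at 48 hours and 0.72, 0.93 and 0.77 at 12 hours. Peptidase M (CAON1197) gave -0.39, 0.16 and 0.19 at 48 hours and -1.72, -1.75 and -1.80 at 12 hours.

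In electron transport 6 of 13 clones rose and 2 fell, with a median of 0.30. The clones disagreed in direction even within the respiratory chain. An ATP synthase lipid-binding protein (AOSC391) rose by 1.32, with 0.14, -0.37 and -0.16 at 48 hours and -1.17, -1.61 and -1.58 at 12 hours. Cytochrome b (AOSF1328) rose by 0.89, cytochrome b5 (CAON1668) by 0.54 and ATP synthase f chain (AOSC720) by 0.51, though the last was 0.23 and not past its limit when the arrays had equal median absolute deviation. Cytochrome c oxidase subunit 1 (AOSB747) fell by 1.61, but replicate 1 of 48 hours, 0.20, lay far from the other values of that age, -1.12 and -0.97. With the spread of both ages at 29.0°C alone its limit was 1.66 and the call was lost. NADH-ubiquinone oxidoreductase 7 (CAON943) fell by 0.51. When the arrays were brought to equal median absolute deviation, 3 clones of the list rose and 2 fell, with a median of 0.13. A second clone of the ATP synthase lipid-binding protein (CAON1556) rose by 1.00 with a limit of 0.85, and this call was lost without replicate 1 of 48 hours (0.89) and without replicate 2 of 12 hours (0.96), and with equal median absolute deviation (0.51).

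The remaining lists were divided. In cytoskeleton and cell adhesion 4 of 17 clones rose and 7 fell. Severin (AOSF1307), known from Dictyostelium as a protein that cuts actin filaments, rose by 1.49 and myosin light chain (AOSF780) by 1.48, while a dynein light chain (AOSF634, -1.28) and the membrane protein DGCR2 (AOSB564, -1.07) fell. In transport 4 of 13 rose and 2 fell, among them Sec61 subunit gamma (AOSF1278, 1.48) of the channel into the endoplasmic reticulum and the major yolk protein (AOSF642, 1.23), known from sea urchins. The yolk protein clone gave 0.63, 0.65 and 1.19 at 48 hours and -0.38, -0.55 and -0.27 at 12 hours. In apoptosis 4 of 7 rose and 2 fell. Cathepsin B (AOSF1172), a lysosomal protease, rose by 1.65, autophagy-related protein 16 (CAOO2671) by 0.85 and calreticulin (AOSC448) by 0.54, and the proapoptotic caspase adaptor (AOSF761) fell by 0.65. With equal median absolute deviation calreticulin differed by 0.23 and did not pass. In the immune list FKBP1A (AOSF836) rose by 1.13 and the lectin tachylectin-2 (AOSF387) by 0.78, and protein Red (AOSB507) fell by 1.06. In metabolism 1 of 13 rose and 4 fell, in signaling 2 of 9 rose and 3 fell, and in the reverse transcriptase and pol-like clones 1 of 6 rose and 1 fell.

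Regulators of transcription gave small differences, with 2 rises and 2 falls among 10 clones. Of the 5 zinc finger clones, 2 rose and 1 fell. A CCHC-type clone (AOSF1405) rose by 0.67, a C2H2-type clone (AOSC580) rose by 0.59 and another of that type (AOSF578) fell by 0.59. The call of AOSF1405 was lost with the spread of both ages at 29.0°C alone (limit 0.75). The RING-type clone (AOSF1285, -0.02) and the second CCHC-type clone (CAON1821, 0.07) did not pass, and the signs of both turned under other scalings. Activating transcription factor 5 (CAON612) fell by 0.42, just past its limit of 0.41, and the call was lost without replicate 1 of 48 hours (-0.26) and without replicate 2 (-0.37) or 3 (-0.36) of 12 hours. It was also lost with centred arrays (-0.39), with equal median absolute deviation (-0.35), with the replicate block (limit 0.44) and with the spread of both ages at 29.0°C alone (limit 0.79).

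SCRiPs are small cysteine-rich proteins found in corals. Of 5 clones, SCRiP1 (AOSF1109) rose by 0.63, with 0.17, 0.17 and -0.10 at 48 hours and -0.47, -0.69 and -0.50 at 12 hours. SCRiP5 (AOSF1140) fell by 0.44, with -0.09, -0.30 and -0.21 at 48 hours and 0.14, 0.35 and 0.21 at 12 hours. This call was lost without replicate 2 (-0.38) or 3 (-0.43) of 48 hours and without replicate 2 of 12 hours (-0.38). SCRiP6 (AOSF1199, 0.16), SCRiP8 (AOSF810, 0.13) and SCRiP2 (AOSF1192, 0.09) did not pass, and the last turned to -0.03 without replicate 1 of 48 hours.

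Clone identifiers begin with letters whose meaning is not given in the sources used here. Of 77 clones that begin with AOSB, 3 rose and 47 fell, with a median of -0.86, and the 12 largest falls with a gene name held 5 of them. Of 560 clones that begin with AOSF, 183 rose and 90 fell, with a median of 0.16. The AOSB clones had a median log2 ratio of -0.20 at 48 hours and 0.52 at 12 hours. The part of clone origin in the list results was not tested.

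The RNA samples of 27.5 and 31.5°C give the same contrast of ages in other pools of embryos. Their ratios did not enter the differences at 29.0°C, but their arrays entered the spread behind every limit. All 18 arrays share the pooled reference and the clones. At 27.5°C 500 of 1101 clones changed between 48 and 12 hours (45.4%), with 24.6% higher and 20.8% lower at 48 hours. At 31.5°C 414 of 1217 changed (34.0%), with 244 higher (20%) and 170 lower (14.0%) at 48 hours. Across the 1099 clones with at least 2 arrays in every condition, the change at 29.0°C had a Pearson correlation of 0.90 with that at 27.5°C and of 0.76 with that at 31.5°C. Clones are not independent replicates, and these values only describe the samples. Of 288 clones that rose at 29.0°C within this set, 251 had a positive change at both other temperatures (87.2%), against 37.9% of all 1099 clones. Of 254 that fell, 206 had a negative change at both (81.1%), against 34.6% of all clones. In the opposite direction at both temperatures were 1 of the rises and 2 of the falls.

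With RNA samples as units, the arrays were averaged and the 4 samples of 27.5 and 31.5°C were fitted in limma with temperature as a factor. At a Benjamini-Hochberg threshold of 0.05, 227 of 1101 clones differed between the ages (20.6%), 127 higher (11.5%) and 100 lower (9.08%) at 48 hours. This fit had 1 residual degree of freedom, and limma gave all clones 1 common spread, so its p-values do not hold the variation of single clones. Of the 288 rises at 29.0°C, 117 were higher in this test and 0 lower, and of the 254 falls 85 were lower and 0 higher. Among the 12 largest rises with a gene name, 10 passed it, and among the 12 largest falls 11 passed. The exceptions were L35a (AOSF1193, adjusted p = 0.055), chloramphenicol acetyltransferase (CAOO1050, adjusted p = 0.11) and ubiquitin carboxyl-terminal hydrolase 5 (AOSB472, adjusted p = 0.062).

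**Figure D3:**
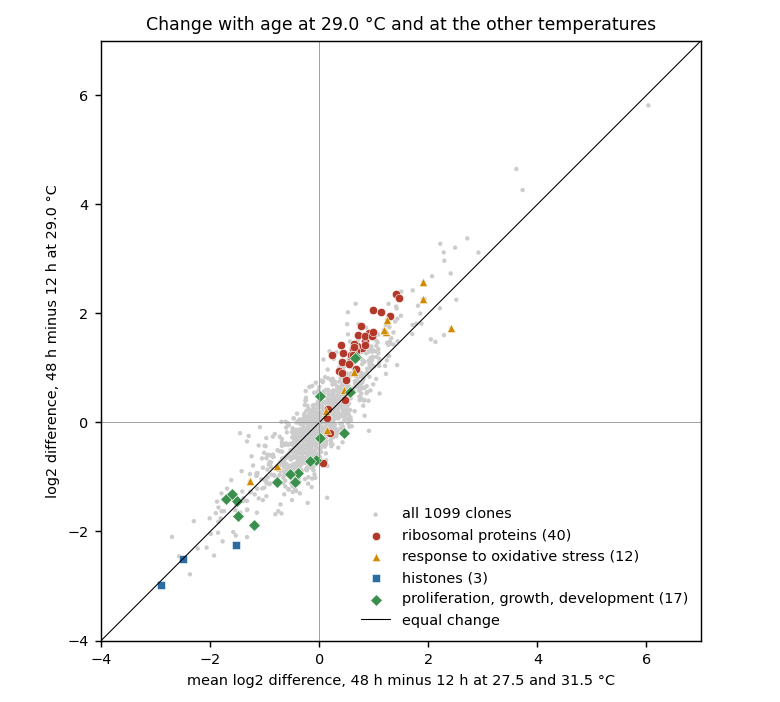
Log2 difference between 48 and 12 hours at 29.0°C (vertical axis) against the mean difference at 27.5 and 31.5°C (horizontal axis) for 1099 clones, in grey, with 4 functional lists in colour. The line marks equal change. Most clones lie along the line, and 33 of the 40 ribosomal protein clones lie above it by more than the 95% interval of the contrast.

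The size of the change was compared directly, as the change at 29.0°C minus the mean of the changes at 27.5 and 31.5°C. The 95% interval of this contrast left out 0 for 288 of 1099 clones (26.2%), 167 above (15.2%) and 121 below (11.0%). The interval covers error between arrays only, so the contrast compares 1 pair of RNA samples with 2 others. The study had selected the listed clones on these same arrays for differences between temperatures, which favours a contrast away from 0. Counts of this contrast in the lists are thus not independent evidence, and the shares over all clones are not an even comparison. Ribosomal proteins lay above in 33 of 40 clones and below in 2, with a median contrast of 0.65. Their median change was 1.00 at 27.5°C, where 37 of 40 rose, 1.36 at 29.0°C, where 37 of 41 rose, and 0.31 at 31.5°C, where 13 of 41 rose. In limma over the RNA samples of 27.5 and 31.5°C, 13 of 40 were higher at 48 hours and none lower. At 29.0°C the change exceeded that at both other temperatures in 34 of the 40 clones. The level at 12 hours was lowest at 29.0°C in 35 of 40 clones, where the list median was -1.22, against -0.64 at 27.5°C and -0.63 at 31.5°C. The same count was not made over all clones. At 12 hours the SD over all clones was 0.67 to 0.70 on the arrays of 29.0°C and 0.66 to 0.69 on those of 27.5°C. It was 0.76, 0.56 and 0.51 on those of 31.5°C. At 48 hours the list medians were 0.12 at 29.0°C, against 0.35 at 27.5°C and -0.31 at 31.5°C. At 12 hours the level at 29.0°C was thus below both others, and at 48 hours it lay between them. The other arrays of 12 hours were less even. Those of 27.5°C correlated at 0.676 to 0.823, and replicate 1 of 31.5°C with the others of its sample at 0.547 and 0.569. The list median on these single arrays was -0.89, -0.60 and -0.61 at 27.5°C and -0.61, -0.64 and -0.65 at 31.5°C.

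**Figure D4:**
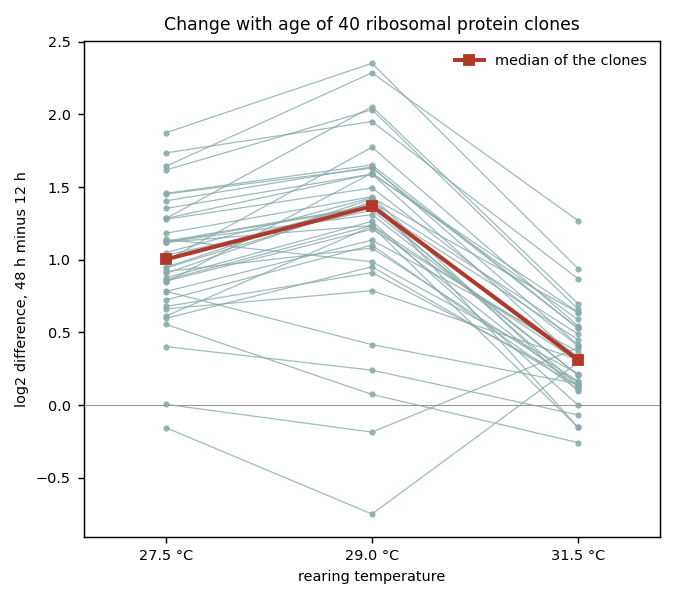
Log2 difference between 48 and 12 hours for 40 ribosomal protein clones at 27.5, 29.0 and 31.5°C. Thin lines are single clones and the thick red line is their median. In 34 of the clones the change at 29.0°C is above those at both other temperatures, as it is in 335 of all 1099 clones.

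Electron transport clones also differed by temperature. At 27.5°C 7 of 13 rose and 2 fell with a median of 0.44, at 29.0°C 6 rose and 2 fell with a median of 0.30, and at 31.5°C 1 rose and 3 fell with a median of -0.26. The interval of the contrast lay above 0 in 6 of the 13 clones and below 0 in none. The ATP synthase lipid-binding protein (AOSC391) rose by 1.32 at 29.0°C and by 1.30 at 27.5°C. At 31.5°C it fell, with a difference of -0.41 just past its limit of 0.39. Among other translation clones 7 of 10 lay above, led by elongation factor 1-alpha (AOSF1463), which rose by 1.61 at 29.0°C and by 0.97 at 27.5°C and differed by 0.08 at 31.5°C. Proliferation clones lay below in 7 of 17 and above in 4.

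**Figure D5:**
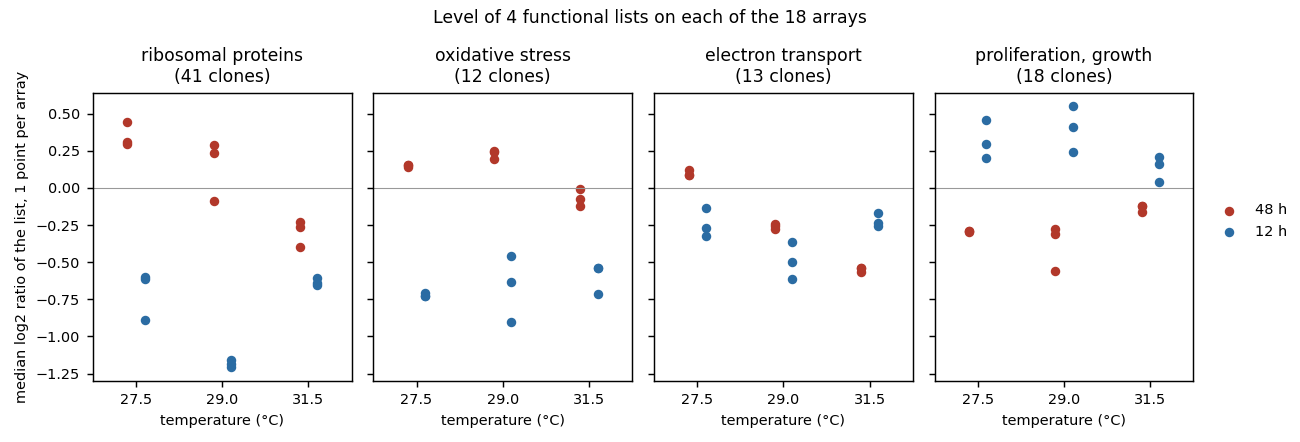
Median log2 ratio over the clones of 4 functional lists on each array, by rearing temperature. Red points are the 3 arrays of 48 hours and blue points those of 12 hours. Ribosomal protein clones stand lowest at 12 hours and 29.0°C, and electron transport clones change their order of ages at 31.5°C.

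The 3 histones fell at every temperature. H3.3 (AOSF1219) changed by -2.98 at 29.0°C, against -2.85 at 27.5°C and -2.95 at 31.5°C. The contrast of -0.08 had a half-width of 0.22. The contrast of H2A.V (AOSF622) was -0.02 with a half-width of 0.30, although its change of -2.51 at 29.0°C lay between -1.59 at 27.5°C and -3.40 at 31.5°C. H1.0-A (AOSB632) changed by -2.25 at 29.0°C and -2.19 at 27.5°C, but by -0.86 at 31.5°C, and its contrast of -0.72 had a half-width of 0.38. Universal stress protein (AOSF1521) rose by 3.12 at 29.0°C, beside 2.73 at 27.5°C and 3.11 at 31.5°C. The contrast of 0.20 was within the half-width of 0.22. The contrast thus stayed within its interval for H3.3, H2A.V and the stress protein, and not for H1.0-A.

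Catalase (AOSF550) rose by 2.57 at 29.0°C and by 2.58 at 31.5°C, and by 1.23 at 27.5°C, with a contrast of 0.67 ± 0.43 (95% half-width). Peroxidasin (AOSF997) rose by 1.72 at 29.0°C and by 4.44 at 31.5°C, and its difference of 0.39 at 27.5°C did not pass, so that its contrast was -0.69. Leishmanolysin (AOSF1178) changed by -2.10 at 29.0°C, -2.62 at 27.5°C and -2.79 at 31.5°C, with a contrast of 0.60 ± 0.29. The RNA adenosine deaminase (AOSB1111) fell at 29.0°C, while its differences of 0.02 at 27.5°C and -0.19 at 31.5°C did not pass, and its contrast was -0.86 ± 0.40.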

How the data were processed

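Total RNA of pooled embryos was amplified, labelled and hybridised to arrays of spotted cDNA clones. Per the methods, the authors extracted spot intensity and subtracted background in TIGR Spotfinder 2.2.4, and the scanner files as deposited hold this intensity of both channels. The values analysed are the log2 ratios of the deposited table, 1 for each clone on each array, to which the authors had applied print-tip LOWESS in TIGR MIDAS 2.19. That its scale is log2 and its direction Cy5 over Cy3 was checked against the scanner files. For the reference, the labels name RNA of 12, 24, 36 and 48 hours and the methods equal amounts of all samples.

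Ratios were used as deposited, without further normalization. A linear model per clone gave 1 mean per condition, and the criterion of non-overlapping 95% intervals follows the methods, which used BAGEL. RNA samples were fitted in limma 3.58.1 under R 4.3.3. Python 3.11.15 with scipy 1.17.1, pandas 2.3.3, numpy 2.4.6 and, for figures, matplotlib 3.10.9 did the rest. All tests were tried on simulated data in which the clones of a condition shared 1 spread, so unequal spread between clones was not covered.

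Names and functional lists came from the annotation and process columns of the study's list of 538 clones, 537 of them within the filter on arrays. Its fold changes were not used. Clones were named if they were among the 12 largest rises or falls with a gene name, a call and arrays apart, the 2 largest rises or falls without a name, the 4 largest differences of each list, or the clones identified in the article, and for the SCRiP, histone and zinc finger families. Others are marked where they appear. The comparison, lists and naming rule were chosen with earlier results of these data known. No clone sequences were used here. Replicate numbers do not pair the samples. Scanner spots carry no clone names and served for counts only.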

Additional observations from a re-analysis of the deposited data

Results flagged for a closer look

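The change between 48 and 12 hours differed between temperatures beyond an interval widened for all 1099 clones tested in 14 clones, 13 above and 1 below the mean change at 27.5 and 31.5°C. This wider interval and the clones below were chosen after the values were seen, and the interval covers array error only. Of the 14, 6 have a gene name. The contrast was 1.12 for a chloramphenicol acetyltransferase clone (AOSC1094), which rose by 1.30 at 29.0°C and had differences of 0.31 at 27.5°C and 0.07 at 31.5°C that did not pass its limit. It was 1.06 for S14 (AOSF1155), which changed by 2.05, 1.28 and 0.70 at these temperatures, and 1.01 for L35a (AOSF1193), which changed by 1.77, 0.99 and 0.54. It was 0.88 for L11 (AOSC809), 0.80 for AOSF1141, annotated as L15, and 0.57 for the ubiquitin-like protein FUBI (CAON1748), which rose by 1.05 at 29.0°C and 1.01 at 27.5°C and had a difference of -0.05 at 31.5°C that did not pass. FUBI is made as a fusion with a ribosomal protein in animals. The arrays of 12 hours at 27.5°C, which enter each contrast, lacked 241, 79 and 84 of the 1218 clones.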

How the results depend on the processing

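Every result compares single RNA samples, and intervals hold array error only. Array precision sets the limit for small changes, with a median limit of 0.50. The number of clones that changed at 29.0°C ran from 501 to 538 with each of the 6 arrays of 29.0°C left out. Centring, equal median absolute deviation, stricter filters on arrays, the spread of the 2 ages alone and limma's moderated spread gave 542 to 584. Equal deviations gave 555, of which 525 were calls shared with the full set. The spread of the 2 ages alone gave 562, of which only 474 were shared, so similar totals hide calls lost and gained. A fold of 2 in place of the intervals gave 262. Array weights, chosen later, gave 734. On scanner spots 1039 of 2621 (39.6%) changed after print-tip loess and 1188 after median centring. Without the dimmest 20% of all scanner spots it was 1038 of 2591. That cut left nearly all tested spots in place, so it cannot show how the calls depend on dim spots. With the replicate block 560 clones changed, 548 of them in common, and the contrast between temperatures counted 280. The deviations of same-numbered arrays correlated at 0.06, 0.12 and -0.02. The contrast counted 288 clones, 222 to 288 with an array of 29.0°C left out, and 14 with the widened interval. No array of 27.5 or 31.5°C was left out, although these also enter the contrast. Centring raised the share of its clones that lay above, 195 of 296, against 167 of 288. Limma over the RNA samples of 27.5 and 31.5°C gave 227 clones, 417 with all 6 RNA samples, 107 with equal deviations, and 188 to 255 otherwise.

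Of 86 changed clones named by rule, 57 kept their call in every alternative. Signs turned in clones that had not passed. These were heat shock transcription factor 1 (-0.251 to 0.034 with an array left out, the highest without replicate 3 of 48 hours), SCRiP2 (-0.0054 with equal deviations, -0.027 to 0.180 with an array left out, the lowest without replicate 1 of 48 hours), the RING-type zinc finger AOSF1285 (0.0085 centred, 0.055 with equal deviations, -0.063 to 0.058 with an array left out, above 0 without replicate 2 of either age) and the zinc finger CAON1821 (-0.0051 with equal deviations). The median of signaling clones, -0.16, ran from -0.272 to 0.024 with an array left out, the highest without replicate 1 of 48 hours, and was 0.027 with array weights.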
